A study of Arabidopsis thaliana with 6 samples.

Results

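The genes described here are 43 Arabidopsis thaliana loci of carbon fixation and photorespiration, taken by locus identifier from the 27779 gene rows of an RNA-seq table of siliques, the seed-bearing fruits. They comprise 4 Rubisco small subunit genes and Rubisco activase, the plastid enzymes of the Calvin cycle, the CP12 regulators, the enzymes of photorespiration and 2 carbonic anhydrases. The members were listed by locus, and earlier results of these data were known when they were chosen. Transcript levels were measured in 3 libraries of the agc1-4 mutant and 3 libraries of WT, all from siliques 3 days after pollination. agc1-4 is a mutant of AGC1-4, a protein kinase of the AGC family, which was taken as AT5G40030 from background knowledge. The column names begin with Col for WT and sr for agc1-4, and the labels do not explain either. They do not state the lesion of the mutant or the growth conditions of the plants. Whether the replicates are separate plants was not stated, so a p-value here speaks of library-to-library spread only, and that spread can be technical.

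In the Calvin cycle, Rubisco joins CO2 to ribulose bisphosphate in the chloroplast stroma, the product is reduced to triose phosphate with ATP and NADPH from the light reactions, and the acceptor is then regenerated. Rubisco also reacts with oxygen, and the phosphoglycolate so formed is recycled by photorespiration, which runs through the chloroplast, the peroxisome and the mitochondrion and returns glycerate to the cycle. The silique wall and young seeds of Arabidopsis are green and carry out photosynthesis.

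To show how alike the small subunit genes are, and so how reads could be divided among them, coding bases 61 to 150 (counted from the A of the start codon) are given from RefSeq for the 4 genes. This stretch encodes part of the transit peptide that directs the protein to the chloroplast. Capitals mark bases that differ from RBCS1A.
RBCS1A: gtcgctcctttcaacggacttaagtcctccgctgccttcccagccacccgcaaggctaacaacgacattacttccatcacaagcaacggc
RBCS1B: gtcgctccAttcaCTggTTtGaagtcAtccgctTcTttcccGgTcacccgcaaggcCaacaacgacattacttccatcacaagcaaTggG
RBCS2B: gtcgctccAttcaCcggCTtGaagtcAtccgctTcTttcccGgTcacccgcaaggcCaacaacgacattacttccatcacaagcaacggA
RBCS3B: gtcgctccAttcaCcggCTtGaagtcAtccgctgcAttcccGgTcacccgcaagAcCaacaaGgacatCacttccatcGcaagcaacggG
Of these 90 bases, 14 differed in RBCS1B, 12 in RBCS2B and 15 in RBCS3B. Over the whole coding sequence RBCS1A was 87.7% to 90.1% identical to the other 3 genes. RBCS1B, RBCS2B and RBCS3B, which stand next to each other on chromosome 5, were 94.1% to 97.3% identical to one another. The deposited counts of the 4 genes were not all whole numbers, so their separate levels are less certain than their sum.

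Upstream sequence was read from RefSeq's TAIR10.1 genome for the 250 bases before each annotated gene start, because many light-regulated plant genes carry G-boxes or I-boxes near their start. The deposited table names no build, so these windows belong to RefSeq's gene models and were matched to the table by locus. The windows shown are those of the genes that passed the test below and hold a G-box (CACGTG) in a window free of other genes, with that of GS2, the plastid glutamine synthetase, as one with no match. Capitals mark the G-box and the I-box core (GATAAG, or CTTATC on the other strand).
RBCS2B (chr5:15382072-15382321, minus strand): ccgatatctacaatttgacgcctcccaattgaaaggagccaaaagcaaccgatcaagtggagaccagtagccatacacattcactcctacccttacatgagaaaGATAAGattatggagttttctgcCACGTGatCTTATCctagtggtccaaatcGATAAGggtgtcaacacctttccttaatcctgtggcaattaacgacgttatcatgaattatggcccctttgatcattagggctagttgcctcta
HCEF1 (chr3:20016587-20016836, plus strand): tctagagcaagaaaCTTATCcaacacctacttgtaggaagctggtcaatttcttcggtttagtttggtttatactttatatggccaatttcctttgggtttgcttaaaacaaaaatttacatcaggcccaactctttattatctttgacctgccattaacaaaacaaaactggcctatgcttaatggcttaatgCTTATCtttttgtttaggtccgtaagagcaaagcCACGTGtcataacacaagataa
PRK (chr1:11531949-11532198, plus strand): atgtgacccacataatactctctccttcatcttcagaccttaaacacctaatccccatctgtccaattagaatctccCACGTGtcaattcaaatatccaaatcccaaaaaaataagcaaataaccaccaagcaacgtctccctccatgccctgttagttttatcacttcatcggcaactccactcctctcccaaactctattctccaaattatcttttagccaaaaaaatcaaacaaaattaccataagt
GLDP1 (chr4:15931423-15931672, minus strand): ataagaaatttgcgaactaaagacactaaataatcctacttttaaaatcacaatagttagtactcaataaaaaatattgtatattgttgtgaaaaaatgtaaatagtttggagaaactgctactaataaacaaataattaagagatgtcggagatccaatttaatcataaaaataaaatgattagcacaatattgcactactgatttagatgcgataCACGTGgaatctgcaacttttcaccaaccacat
GS2 (chr5:13830179-13830428, plus strand): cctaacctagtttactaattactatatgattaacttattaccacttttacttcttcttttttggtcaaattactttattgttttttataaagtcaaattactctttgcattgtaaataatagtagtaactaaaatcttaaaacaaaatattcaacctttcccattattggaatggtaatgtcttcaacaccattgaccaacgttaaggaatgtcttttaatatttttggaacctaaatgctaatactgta
On either strand, 7 of the 43 windows held a G-box (16.3%), against 6.49% of the windows of all 27443 genes. The I-box core stood in 6 windows (13.95%, against 12.3% of all windows). CCAATC, a motif known for the GLK transcription factors, stood in 5 windows (11.6%, against 10.2% of all windows). No match overlapped another. Of the 43 windows, 30 held none of the 3 motifs, and 18 overlapped a neighbouring gene. The 22 genes that were lower in agc1-4 below held a G-box in 4 windows, an I-box core in 3 and CCAATC in 1. The 20 genes that did not pass held them in 2, 3 and 4 windows. TKL2, the 1 gene that was higher, held a G-box 249 bases before its start, in a window overlapping a neighbouring gene. These matches are descriptions of the letters present.

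The libraries held between 7973366 and 11812934 estimated counts. AGC1-4 itself was listed at 0.09, 0.39 and 0.07 FPKM (fragments scaled to transcript length and library size, as deposited) in agc1-4 replicates 1, 2 and 3, against 0.63, 1.78 and 1.01 FPKM in WT replicates 1, 2 and 3. Its log2 fold change was -2.66 ± 0.54 (SE, adjusted p = 0.000983 by edgeR's quasi-likelihood test), and an exact permutation test gave p = 0.1, the smallest that 3 against 3 libraries allow. The libraries also differed in markers of the tissues a silique holds. Beside the counts that follow, 6.55% of all rows tested were higher in agc1-4 and 7.07% lower, at an adjusted p under 0.05 by the same edgeR test. Of 10 endosperm markers, 9 were tested and 4 were higher in agc1-4, with none lower and a summed level of 182 to 204 FPKM in agc1-4, against 137 to 143 FPKM in WT. FIS2, another of them, was called higher without WT replicate 2 (adjusted p = 0.0142). Among the 9 tested, the fold was above 1 for 7 and below 1 for 2. Those 2 were MEA (-0.36 ± 0.17, adjusted p = 0.172) and AGL62 (-0.11 ± 0.12, adjusted p = 0.615). All agc1-4 values of MEA lay below all WT values. Of 5 embryo markers, 3 were tested and all 3 were higher, with a sum of 13.7 to 14.4 FPKM in agc1-4, against 2.76 to 4.68 FPKM in WT. WOX2, an early embryo gene, had 3, 0 and 0 counts in agc1-4 replicates 1, 2 and 3 and 2, 2 and 1 in WT. IKU2, an endosperm gene, had 0 to 2.05 counts per library, with the 0 in WT replicate 1. Both were too low in every library to be tested. Of 6 seed coat markers, 2 were higher and none lower, with 976 to 1008 FPKM in agc1-4 and 840.2 to 1004 FPKM in WT. TT10, 1 of these, lost its call without agc1-4 replicate 1 or 2 or WT replicate 2 (adjusted p of 0.0539, 0.0942 and 0.0995), and BAN was called higher without WT replicate 3 (0.00973). TT16 was the 1 seed coat marker with a fold below 1 (-0.31 ± 0.12, adjusted p = 0.0753). It averaged 11.9 FPKM in agc1-4 and 14.9 FPKM in WT, a small part of the sum, and its genotypes did not overlap. Of 5 fruit wall markers, 2 were lower and none higher, with 354 to 383 FPKM in agc1-4 and 338 to 372 FPKM in WT. The lower markers were RPL (-0.41 ± 0.08, adjusted p = 0.000352) and FUL (-0.24 ± 0.08, adjusted p = 0.0411). The call of FUL was lost without agc1-4 replicate 2 or 3 or WT replicate 1 or 2 (adjusted p of 0.0696 to 0.294), and SHP1 was called higher without agc1-4 replicate 1 (0.0416) or WT replicate 2 (0.006). Neither of the 2 pollen markers passed, with 95.7 to 111 FPKM in agc1-4 and 75.2 to 98.5 FPKM in WT. Without WT replicate 3 both were called higher, VGD1 at 0.53 and VGDH1 at 0.35 on the log2 scale, and VGD1 was also called without agc1-4 replicate 2 (adjusted p = 0.0459). The part of these tissue markers in the results below was not tested. In whole siliques, fewer cells of a type and less RNA per cell cannot be told apart.

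About as many of the carbon fixation and photorespiration genes were lower in agc1-4 siliques as did not pass the test, and the differences ran from a log2 fold change of -0.36 for CA1 to 0.29 for TKL2 among the genes called. At an adjusted p under 0.05 over the 18828 rows tested, 22 of the 43 genes were lower (51.2%), 1 was higher and 20 did not pass. The background was 7.07% of all rows lower and 6.55% higher, and 12.7% lower and 13.4% higher among the 2565 rows with a mean of at least 50 FPKM, a level chosen after the values were seen. With DESeq2 18 of the 43 genes were lower (3.74% of all rows), and with limma on log2(FPKM + 1) 15 were lower (4.56% of all rows). All 43 genes passed the filter on low counts. Values per library are given in the order of replicates 1, 2 and 3, and a value before an adjusted p is a log2 fold change with its SE. The median log2 fold change of the 43 genes was -0.17, against 0.00136 over all rows tested. The fold was below 1 for 37 genes and above 1 for 6. FPKM values of all 3 agc1-4 libraries lay below all 3 of WT for 27 genes, where 15.0% of all rows did so, and above them for 2 genes, where 14.5% of all rows did so.

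**Figure D1:**
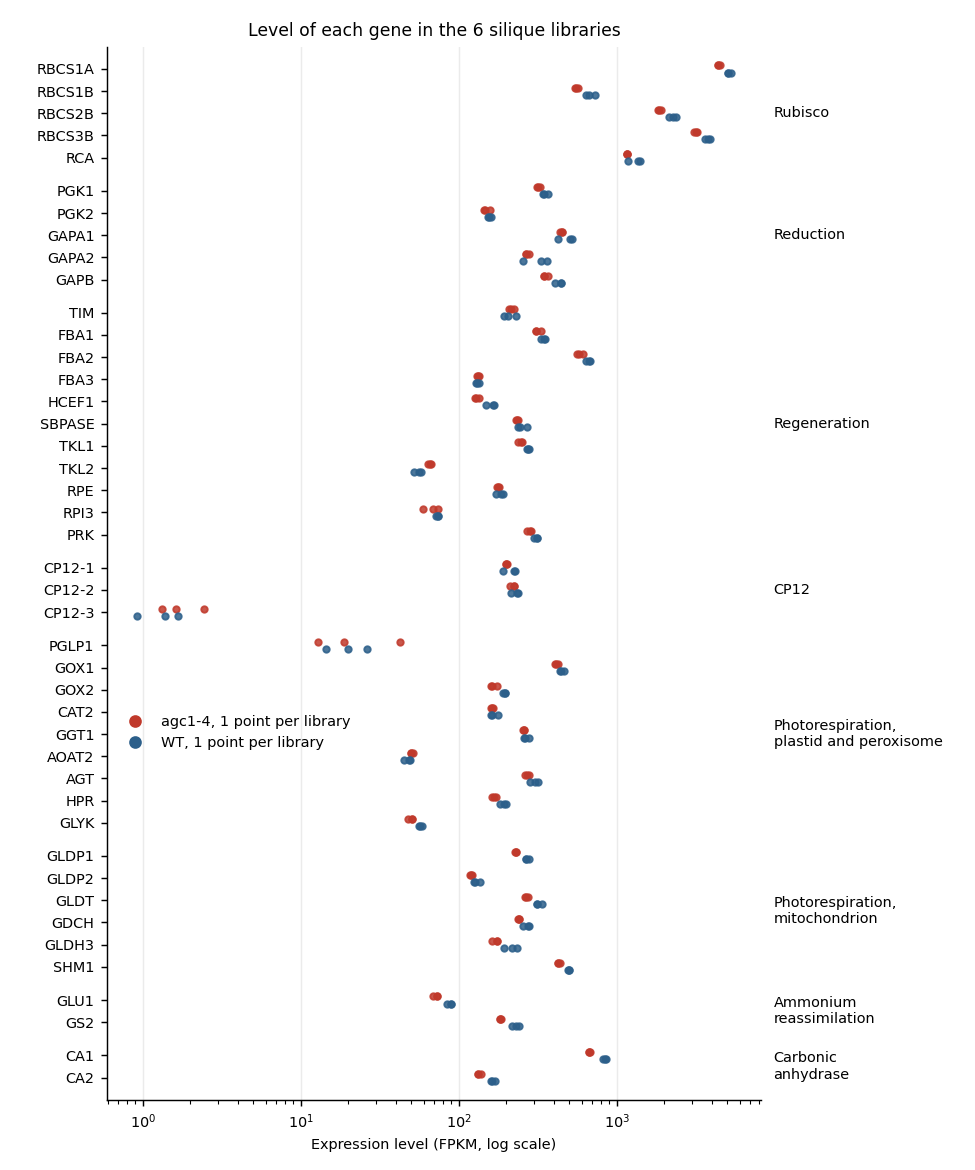
Level of each of the 43 genes in FPKM on a log axis, 1 point per library, with agc1-4 above WT in each pair and genes grouped by role. The Rubisco small subunits stand highest, CP12-3 is lowest, and the 3 agc1-4 points lie below the 3 WT points in 27 genes.

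Summed over the 43 genes, the level was 19406, 19597 and 19921 FPKM in agc1-4 replicates 1, 2 and 3, against 22922, 22655 and 22510 FPKM in WT replicates 1, 2 and 3. This was 2.92% to 2.98% of all FPKM in agc1-4 libraries and 3.43% to 3.52% in WT libraries. The sums of the genotypes did not overlap. The 4 small subunit genes made up 50.6% to 51.0% of the summed level in agc1-4 and 50.9% to 54.0% in WT. Relative to the WT mean of each gene, the median log2 ratio of the 43 genes was -0.18, -0.17 and -0.15 in the agc1-4 libraries and 0.04, -0.03 and 0.01 in WT replicates 1, 2 and 3. WT replicate 2 was the lowest WT library for 24 of the 43 genes. Without it 29 genes were lower, and without WT replicate 1 or either of agc1-4 replicates 1 and 2 the count was 15.

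The small subunit genes, which encode the nuclear-encoded subunit of the enzyme that fixes CO2, were among the most abundant transcripts of the siliques. All 4 fell in agc1-4, by 13.9% to 18.3%. RBCS1A (AT1G67090), at rank 3 of all rows by mean FPKM, had 4375, 4382 and 4483 FPKM in agc1-4, against 5033, 5275 and 5064 FPKM in WT. The genotypes did not overlap, and the log2 fold change was -0.22 ± 0.04 (adjusted p = 0.000789). RBCS3B (AT5G38410), at rank 6, had 3091, 3184 and 3222 FPKM in agc1-4 and 3782, 3873 and 3611 FPKM in WT (-0.25 ± 0.04, adjusted p = 0.000268). RBCS2B (AT5G38420), at rank 13, had 1815, 1844 and 1895 FPKM in agc1-4 and 2287, 2361 and 2146 FPKM in WT. Its log2 fold change was -0.29 ± 0.05 (adjusted p = 7.22e-05). The upstream window of RBCS2B holds a G-box and I-box cores, while those of RBCS1A, RBCS1B and RBCS3B hold none of the motifs searched. RBCS1B (AT5G38430), the least abundant of the 4, averaged 555 ± 14.2 FPKM in agc1-4 and 679.9 ± 48.0 FPKM in WT (SD, n = 3 each), a log2 fold change of -0.29 ± 0.05 (adjusted p = 0.000287).

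Summed before the fit, so that the division of reads among them did not matter, the 4 genes had 9822, 9965 and 10168 FPKM in agc1-4, against 11774, 12241 and 11457 FPKM in WT. The highest agc1-4 sum lay below the lowest WT sum, and the log2 fold change of the summed counts was -0.24 ± 0.04 (adjusted p = 0.000177). RBCS1A made up 44.2% ± 0.299 of the family in agc1-4 and 43.3% ± 0.757 in WT (SD, n = 3 each). This difference did not pass an exact permutation test (two-sided p = 0.3, adjusted p = 0.45 over the 6 shares compared), which cannot give a p below 0.1 with these libraries. RCA (AT2G39730), Rubisco activase, which frees blocked active sites of the enzyme, had 1160, 1163 and 1167 FPKM in agc1-4 and 1403, 1184 and 1355 FPKM in WT. The agc1-4 libraries were close together, WT replicate 2 stood nearest to them, and the log2 fold change was -0.18 ± 0.05 (adjusted p = 0.0289). RCA kept its call without WT replicate 2 and lost it when any one of the other 5 libraries was left out (adjusted p of 0.0909 to 0.215).

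In the reduction steps 1 of 5 genes was lower, and none was higher. GAPB (AT1G42970), the B subunit of the plastid glyceraldehyde-3-phosphate dehydrogenase, had 348, 345 and 369 FPKM in agc1-4 and 445, 407 and 446 FPKM in WT. Its genotypes did not overlap (-0.29 ± 0.05, adjusted p = 0.000252). The A subunit genes did not pass. GAPA1 (AT3G26650) had 449.7, 452 and 438 FPKM in agc1-4 and 508, 428 and 525 FPKM in WT, and GAPA2 (AT1G12900) had 278, 267 and 268 FPKM in agc1-4 and 333, 256 and 363 FPKM in WT. In both A subunit genes WT replicate 2 lay below every agc1-4 library, and the other WT libraries lay above them. The log2 fold change was -0.13 ± 0.06 for GAPA1 (adjusted p = 0.215) and -0.22 ± 0.14 for GAPA2 (adjusted p = 0.425). Without WT replicate 2 both genes were called lower, GAPA1 at -0.22 (adjusted p = 0.000217) and GAPA2 at -0.36 (adjusted p = 1.09e-07). PGK1 (AT3G12780), a plastid phosphoglycerate kinase, averaged 319 ± 7.77 FPKM in agc1-4 and 352 ± 12.7 FPKM in WT. It missed the threshold at an adjusted p of 0.0528 and passed it without WT replicate 2 (0.00978) and without WT replicate 3 (0.0435). PGK2 (AT1G56190) averaged 149.6 ± 6.29 FPKM in agc1-4 and 157 ± 2.70 FPKM in WT (-0.07 ± 0.05, adjusted p = 0.397).

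Among the 11 regeneration genes 3 were lower, 1 was higher and 7 did not pass. HCEF1 (AT3G54050), the plastid fructose-1,6-bisphosphatase, had 134, 128 and 129 FPKM in agc1-4 and 168, 149 and 166 FPKM in WT, with no overlap (-0.26 ± 0.06, adjusted p = 0.00194). FBA2 (AT4G38970), a plastid aldolase, had 562, 576 and 613 FPKM in agc1-4 and 669, 673 and 642 FPKM in WT (-0.18 ± 0.05, adjusted p = 0.0114). Its call was lost without agc1-4 replicate 1, agc1-4 replicate 2 or WT replicate 1 (adjusted p of 0.13, 0.0938 and 0.0598). PRK (AT1G32060), phosphoribulokinase, which makes the acceptor of CO2, had 271, 281 and 287 FPKM in agc1-4 and 314, 301 and 314 FPKM in WT. The genotypes of PRK did not overlap, and the difference passed narrowly (-0.15 ± 0.05, adjusted p = 0.0488). It did not pass when any one library other than WT replicate 2 was left out (adjusted p of 0.0856 to 0.26).

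TKL2 (AT2G45290), a plastid transketolase gene, was the 1 gene of the 43 that was higher. It had 66.1, 66.5 and 63.9 FPKM in agc1-4, against 57.5, 56.0 and 51.8 FPKM in WT. All agc1-4 values lay above all WT values, and the log2 fold change was 0.29 ± 0.06 (adjusted p = 0.000627), called also without each library in turn. TKL1 (AT3G60750), the more abundant transketolase gene, had 249, 239 and 253 FPKM in agc1-4 and 273, 277 and 272 FPKM in WT. It lay below WT in every agc1-4 library and did not pass (-0.10 ± 0.05, adjusted p = 0.165). With the counts of TKL1 and TKL2 summed, the log2 fold change was -0.03 ± 0.05 (adjusted p = 0.708). The other 6 regeneration genes that did not pass were FBA1 (AT2G21330, -0.13, adjusted p = 0.107) and FBA3 (AT2G01140, 0.02), both aldolases, SBPASE (AT3G55800, -0.11, adjusted p = 0.207), sedoheptulose bisphosphatase, RPE (AT5G61410, -0.03), ribulose phosphate epimerase, RPI3 (AT3G04790, -0.13, adjusted p = 0.284), ribose phosphate isomerase, and TIM (AT2G21170, 0.04), triose phosphate isomerase, all as log2 fold changes. Without WT replicate 2, FBA1 (adjusted p = 0.0112) and SBPASE (adjusted p = 0.0234) passed.

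None of the 3 CP12 genes, small proteins that bind and inactivate glyceraldehyde-3-phosphate dehydrogenase and phosphoribulokinase in the dark, passed the test. CP12-1 (AT2G47400) averaged 200.4 ± 2.51 FPKM in agc1-4 and 214 ± 21.2 FPKM in WT (-0.09 ± 0.06, adjusted p = 0.387). Without WT replicate 2 its adjusted p was 0.0124. CP12-2 (AT3G62410) averaged 221 ± 6.87 FPKM in agc1-4 and 228 ± 12.4 FPKM in WT (-0.04 ± 0.06, adjusted p = 0.695). CP12-3 (AT1G76560) had 1.32, 1.62 and 2.44 FPKM in agc1-4 and 1.38, 1.67 and 0.92 FPKM in WT, on 6 to 15 counts per library, and no difference was detectable at this depth (adjusted p = 0.639). After trends with GC content and transcript length were removed, CP12-1 and CP12-2 were called lower (adjusted p of 0.0493 and 0.00726).

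**Figure D2:**
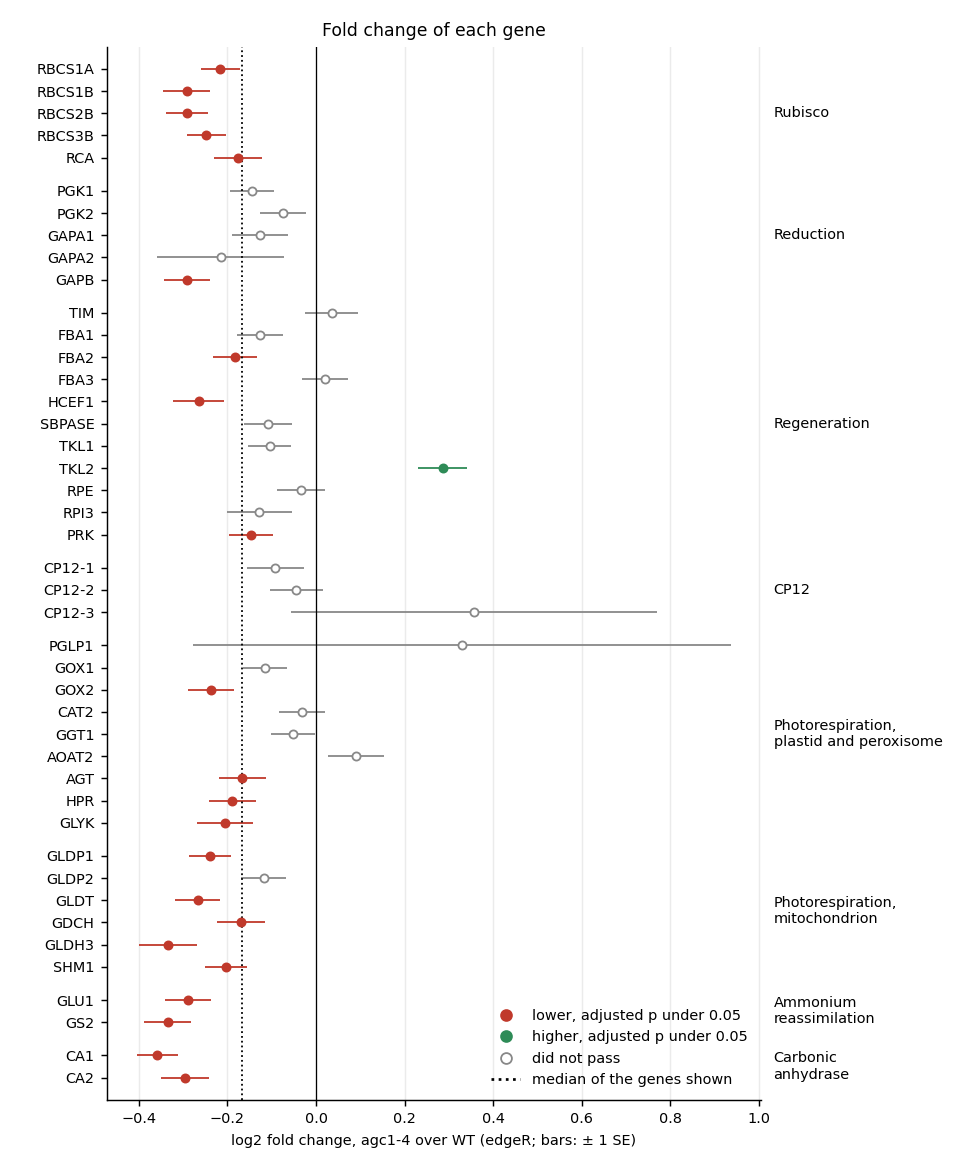
Fold change of each of the 43 genes on the log2 scale (agc1-4 over WT, edgeR, bars of 1 SE), filled where the adjusted p was under 0.05. Points left of the solid line at 0 are lower in agc1-4, the dotted line is the median of the genes at -0.17, and TKL2 is the filled point on the right at 0.29.

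Photorespiration begins in the chloroplast with phosphoglycolate phosphatase. PGLP1 (AT5G36700) had 12.8, 18.8 and 42.5 FPKM in agc1-4, against 26.2, 14.5 and 19.9 FPKM in WT, and its libraries overlapped widely (0.33 ± 0.61, adjusted p = 0.799). Its copy PGLP1B, which was not among the 43 genes, carries an identical coding sequence over 1089 bases, so reads cannot be divided between the 2 genes with certainty. PGLP1B had 141, 142 and 108 FPKM in agc1-4, against 158, 180.1 and 154 FPKM in WT (-0.33 ± 0.11, adjusted p = 0.0854), and it was called lower when agc1-4 replicate 1, 2 or 3 was left out (adjusted p of 0.0446, 0.0418 and 0.0436). The library highest in PGLP1 was the lowest in PGLP1B. Summed, the 2 genes had 154, 160.3 and 150.5 FPKM in agc1-4 and 185, 195 and 174 FPKM in WT, with no overlap. The log2 fold change of the summed counts was -0.25 ± 0.05 (adjusted p = 0.00221). The fold change of PGLP1 alone had the opposite direction to the sum with all libraries and the same direction without agc1-4 replicate 3 (-0.34, adjusted p = 0.644).

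In the peroxisome, GOX2 (AT3G14415), a glycolate oxidase, had 160.1, 174 and 162 FPKM in agc1-4 and 192, 197 and 195 FPKM in WT, with no overlap (-0.24 ± 0.05, adjusted p = 0.00223). GOX1 (AT3G14420), the more abundant glycolate oxidase gene, had 406, 415 and 424 FPKM in agc1-4 and 463, 445 and 440.4 FPKM in WT. Its values did not overlap either, yet the difference did not pass (-0.11 ± 0.05, adjusted p = 0.127), and it passed without WT replicate 2 (adjusted p = 0.0416). Counts of GOX1 and GOX2 summed gave -0.15 ± 0.05 (adjusted p = 0.0298). The shares of GOX1 in the pair, 71.5% ± 0.918 in agc1-4 and 69.7% ± 0.814 in WT, did not pass the exact permutation test for a difference (two-sided p = 0.2, adjusted p = 0.45). CAT2 (AT4G35090), the catalase that removes the peroxide made by glycolate oxidase, averaged 162 ± 3.22 FPKM in agc1-4 and 166 ± 9.52 FPKM in WT (-0.03 ± 0.05, adjusted p = 0.758).

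Of the 3 aminotransferase genes of the peroxisome, 1 was lower and none was higher. AGT (AT2G13360), serine-glyoxylate aminotransferase, averaged 271 ± 6.69 FPKM in agc1-4 and 301 ± 17.6 FPKM in WT and was lower (-0.17 ± 0.05, adjusted p = 0.0375). GGT1 (AT1G23310), the main glutamate-glyoxylate aminotransferase gene, averaged 258 ± 0.778 FPKM in agc1-4 and 267 ± 10.3 FPKM in WT (-0.05 ± 0.05, adjusted p = 0.555). AOAT2 (AT1G70580), its paralog, had 50.1, 51.1 and 49.8 FPKM in agc1-4 and 49.0, 45.0 and 48.5 FPKM in WT, and all agc1-4 values lay above those of WT. The difference did not pass (0.09 ± 0.06, adjusted p = 0.387). HPR (AT1G68010), hydroxypyruvate reductase, averaged 168 ± 4.27 FPKM in agc1-4 and 191 ± 8.85 FPKM in WT and was lower (-0.19 ± 0.05, adjusted p = 0.0159). GLYK (AT1G80380), glycerate kinase, which returns the carbon to the Calvin cycle in the chloroplast, had 50.6, 47.6 and 50.5 FPKM in agc1-4 and 58.6, 55.7 and 56.8 FPKM in WT (-0.21 ± 0.06, adjusted p = 0.0262). The calls of AGT, HPR and GLYK each depended on single libraries. AGT was lost when any one library other than WT replicate 2 was left out (adjusted p of 0.0635 to 0.218). HPR and GLYK were lost when any one agc1-4 library or WT replicate 1 was left out (adjusted p of 0.0555 to 0.107 for HPR and 0.0665 to 0.153 for GLYK).

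In the mitochondrion, where glycine decarboxylase and serine hydroxymethyltransferase turn glycine into serine and release CO2 and ammonium, 5 of 6 genes were lower. FPKM values of agc1-4 lay below those of WT in all 6. GLDT (AT1G11860), the T protein, had 263, 273 and 266 FPKM in agc1-4 and 336, 311 and 314 FPKM in WT (-0.27 ± 0.05, adjusted p = 0.000521). GLDP1 (AT4G33010), the P protein that removes the carboxyl group, had 229, 228 and 231 FPKM in agc1-4 and 279, 268 and 265 FPKM in WT (-0.24 ± 0.05, adjusted p = 0.000821). GLDP2 (AT2G26080), the second P protein gene, averaged 120.02 ± 2.33 FPKM in agc1-4 and 130.1 ± 6.35 FPKM in WT and did not pass (-0.12 ± 0.05, adjusted p = 0.129). The share of GLDP1 in the pair, 65.6% ± 0.462 in agc1-4 and 67.5% ± 1.28 in WT, did not pass that test either (two-sided exact p = 0.2, adjusted p = 0.45).

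GLDH3 (AT1G32470), an H protein gene that carries the reaction intermediate, had 174, 162 and 175 FPKM in agc1-4 and 235, 192 and 219 FPKM in WT (-0.33 ± 0.07, adjusted p = 0.000829). GDCH (AT2G35370), another H protein gene, had 237, 240.1 and 239.7 FPKM in agc1-4 and 278, 255 and 273 FPKM in WT (-0.17 ± 0.05, adjusted p = 0.0345). Its call was lost when any one library other than WT replicate 2 was left out (adjusted p of 0.0715 to 0.159). SHM1 (AT4G37930), serine hydroxymethyltransferase, was the most abundant of the 6 genes, with 428, 440.3 and 423 FPKM in agc1-4 and 499, 489.6 and 498 FPKM in WT. Its 2 genotypes were apart by more than the range within either (-0.20 ± 0.05, adjusted p = 0.00358).

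The 2 plastid enzymes that take up the ammonium released by photorespiration were both lower. GS2 (AT5G35630), glutamine synthetase, had 184, 184 and 182 FPKM in agc1-4, against 241, 217 and 231 FPKM in WT (-0.34 ± 0.05, adjusted p = 3.98e-05). GLU1 (AT5G04140), the ferredoxin-dependent glutamate synthase, had 72.7, 73.3 and 69.1 FPKM in agc1-4 and 88.9, 84.9 and 89.6 FPKM in WT (-0.29 ± 0.05, adjusted p = 0.000216). Neither gene's values overlapped between genotypes, and neither lost its call when any one library was left out.

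Both carbonic anhydrases, which interconvert CO2 and bicarbonate, were lower, and CA1 (AT3G01500) had the smallest adjusted p of the 43 genes. CA1, a chloroplast enzyme, had 674, 671 and 671 FPKM in agc1-4, against 817, 849 and 859 FPKM in WT. The agc1-4 libraries lay close together and below every WT library, with a log2 fold change of -0.36 ± 0.05 (adjusted p = 2.54e-06). CA2 (AT5G14740) had 133, 133 and 138 FPKM in agc1-4 and 163, 161 and 169.7 FPKM in WT, with no overlap (-0.30 ± 0.05, adjusted p = 0.000311). The share of CA1 in the pair was 83.3% ± 0.309 in agc1-4 and 83.7% ± 0.356 in WT, a difference that did not pass (two-sided exact p = 0.5, adjusted p = 0.5).

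By role, the genes lower in agc1-4 were 5 of 5 Rubisco genes, 1 of 5 in reduction, 3 of 11 in regeneration, 0 of 3 CP12 genes, 4 of 9 in the plastid and peroxisome steps of photorespiration, 5 of 6 in the mitochondrion, 2 of 2 in ammonium uptake and 2 of 2 carbonic anhydrases. These shares were not tested against each other. Of the 22 lower genes, 15 were called without each of the 6 libraries in turn: the 4 small subunits, GAPB, HCEF1, GOX2, GLDP1, GLDT, GLDH3, SHM1, GLU1, GS2, CA1 and CA2. All but RBCS1A of these 15 were called in each of 13 other fits with genes counted singly, and RBCS1A had an adjusted p of 0.0728 and 0.064 with limma on log2(FPKM + 1) and log2(FPKM + 0.1).

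**Figure D3:**
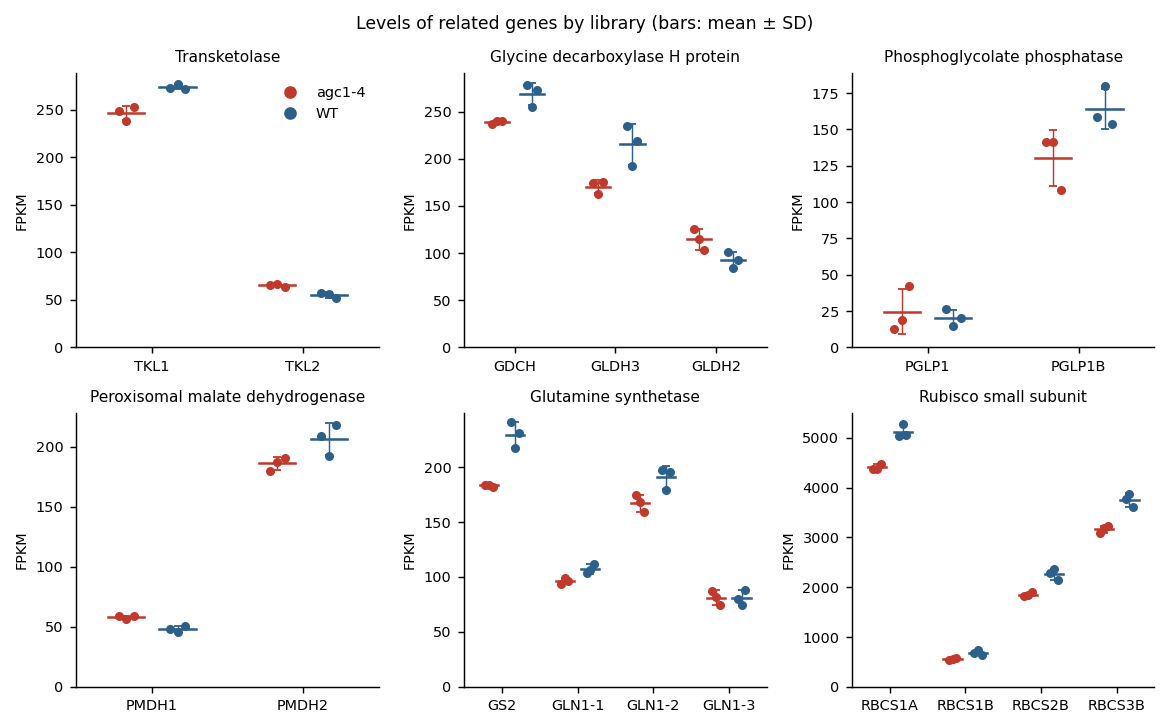
FPKM of related genes by library, agc1-4 left of WT for each gene, with points for libraries and bars for the mean ± SD (n = 3 each). TKL2, GLDH2 and PMDH1 stand higher in agc1-4 and their relatives TKL1, GLDH3 and PMDH2 lower (TKL1 did not pass the test), while in the small subunit family all 4 genes stand lower.

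Of 28 further genes of the same pathways that were not among the 43 (transporters, assembly factors, the chloroplast-encoded large subunit and minor isoforms), 27 were tested, 4 were lower and 2 were higher, with a median log2 fold change of -0.08. These are 14.8% lower and 7.41% higher, against 7.07% and 6.55% of all rows and 12.7% and 13.4% of rows with a mean of at least 50 FPKM, so the counts lie near the background and single genes are given as values only. The lower genes were BCA4, a carbonic anhydrase (-0.29, adjusted p = 0.00521), TPT, the triose phosphate exporter (-0.20, adjusted p = 0.00704), PMDH2, a peroxisomal malate dehydrogenase (-0.17, adjusted p = 0.0404), and CBBY, a plastid sugar phosphatase (-0.21, adjusted p = 0.0441). PMDH2 and CBBY lost their calls when any one library other than WT replicate 2 was left out (adjusted p of 0.0779 to 0.199 for PMDH2 and 0.0619 to 0.276 for CBBY). BCA4 lost its call without agc1-4 replicate 2 (0.081), and TPT lost it without agc1-4 replicate 3 (0.0542). The higher genes were PMDH1, the second peroxisomal malate dehydrogenase, with 58.8, 56.6 and 58.6 FPKM in agc1-4 and 47.9, 45.8 and 50.8 FPKM in WT (0.27 ± 0.06, adjusted p = 0.00334), and GLDH2, an H protein gene, with 126, 115 and 104 FPKM in agc1-4 and 102, 84.3 and 92.3 FPKM in WT (0.31 ± 0.08, adjusted p = 0.00651). GLDH2 lost its call without agc1-4 replicate 1 (0.0719). RBCL, the large subunit of Rubisco, ranged over 23.1, 55.9 and 122.8 FPKM in agc1-4 and 43.2, 13.5 and 33.9 FPKM in WT, and no difference was detectable (adjusted p = 0.475).

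Cytosolic isoforms, which carry out the same kinds of reactions in the cytosol, had a median log2 fold change of 0.07 over 14 genes. Of these, 1 was lower (7.14%, against 7.07% of all rows) and 2 were higher (14.3%, against 6.55% of all rows and 13.4% of rows with a mean of at least 50 FPKM), counts near the background. GLN1-2, a cytosolic glutamine synthetase, averaged 167 ± 7.68 FPKM in agc1-4 and 191 ± 10.2 FPKM in WT (-0.19, adjusted p = 0.0232), while plastid GS2 above was lower at -0.34. FBA6, a cytosolic aldolase, averaged 115 ± 9.15 FPKM in agc1-4 and 97.2 ± 4.24 FPKM in WT (0.24, adjusted p = 0.00664). The ribulose phosphate epimerase gene AT1G63290 averaged 66.2 ± 2.70 FPKM in agc1-4 and 55.9 ± 1.73 FPKM in WT (0.24, adjusted p = 0.0132). Leaving out agc1-4 replicate 3 ended the calls of FBA6 (adjusted p = 0.08) and AT1G63290 (adjusted p = 0.0777). GLN1-2 lost its call without agc1-4 replicate 2 or 3 or WT replicate 1 or 3 (0.0623 to 0.156).

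Nuclear genes of the photosystems and their antennae, which supply the ATP and NADPH for carbon fixation, were lower in 24 of 39 cases and higher in none. These are 61.5% lower, against 7.07% of all rows and 12.7% of rows with a mean of at least 50 FPKM. Their median log2 fold change was -0.19, beside 22 of 43 lower and a median of -0.17 for the carbon fixation and photorespiration genes. The difference between the lists was not tested. The smallest adjusted p-values were those of LHCB2.3, an antenna protein (-0.44 ± 0.06, adjusted p = 1.78e-06), and PSAH2, a photosystem I subunit (-0.43 ± 0.06). The count of lower photosystem genes was 11 without agc1-4 replicate 2, 15 without agc1-4 replicate 1 and 34 without WT replicate 2. Among 9 regulators of chloroplast genes, PIF4 (-0.55 ± 0.13, adjusted p = 0.00448), GLK2 (-0.33 ± 0.10, adjusted p = 0.0223) and PIF5 (-0.25 ± 0.07, adjusted p = 0.0234) were lower and none was higher. The lower genes are 33.3% of the 9, against 7.07% of all rows. GLK2 lost its call without agc1-4 replicate 2 or 3 or WT replicate 2 (0.0671 to 0.142). PIF5 lost its call when any one agc1-4 library or WT replicate 2 was left out (0.0703 to 0.104). GLK1 was called lower without agc1-4 replicate 3 (0.0237) or WT replicate 3 (0.0464), and PIF3 without WT replicate 1 (0.0481).

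**Figure D4:**
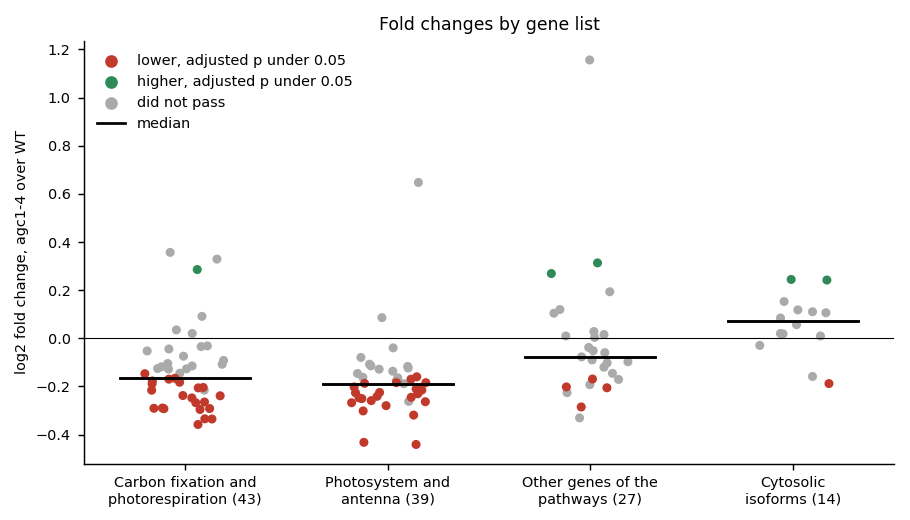
Log2 fold change (agc1-4 over WT) of every tested gene in 4 lists, with the median as a bar and the number tested in brackets. The medians are -0.17 for carbon fixation and photorespiration, -0.19 for photosystems, -0.08 for other genes of the pathways and 0.07 for cytosolic isoforms.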

How the data were processed

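Per the labels, the starting material was total RNA (Trizol), sequenced from Illumina libraries. The deposited table holds 12 value columns, which per the file headers are a count column and an FPKM column for each of 6 libraries. The counts are the authors' estimated counts, since 4.32% to 4.86% of values per library are not whole, and they were rounded. The FPKM values deposited by the authors served as levels, given as mean ± SD over 3 libraries. The aligner, counter, build and strand setting are not given in the sources used here, so reads of near-identical, overlapping and antisense genes cannot be divided with certainty.

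The main test was edgeR's (version 4.0.16, R 4.3.3) robust quasi-likelihood F-test with TMM, filterByExpr and no covariates. It ran on 18828 rows, after 8951 had been filtered out, with Benjamini-Hochberg adjustment over all of them and a threshold of 0.05 on the adjusted p. All ratios put agc1-4 over WT, and each SE equals the absolute log2 fold change over the square root of F. The script was tested on simulated data in which the changed genes had larger folds than any member here, so recovery at the members' folds was not tested. A count of 0 allows up to 3 counts in a library, 0.254 to 0.376 CPM, and covers counting error only. Shares of a gene within its family were tested with exact two-sided permutation tests, which cannot go below p = 0.1. Alternatives were RLE size factors, no filter, DESeq2 1.42.0, limma 3.58.1 on log2(FPKM + 1) and log2(FPKM + 0.1), a replicate block, each library left out, GC and length trends removed, paralog counts summed and TPM levels computed from the FPKM.

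All 43 members were matched by locus to RefSeq (TAIR10.1), which gave the sequences. Protein identity had been planned and was replaced by identity of coding bases. The members and gene lists were chosen with earlier results of these data known. All 43 members could be named, and of other lists up to 4 called genes by adjusted p (with none called, up to 2 by p). RBCL, PGLP1B, PMDH2, CBBY, WOX2, IKU2, BAN, SHP1, FIS2, MEA, AGL62, TT16, GLK1 and PIF3 lie outside that rule. They were named after their values were seen.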

Additional observations from a re-analysis of the deposited data

How the results depend on the processing

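Under the alternatives, the fold change of a single gene kept its direction and its side of the threshold in 522 cases, lost the call in 57, gained it in 15 and changed sign in 8, and 37 of the 43 genes kept their sign throughout. Summed paralogs turned TKL2 (-0.034), PGLP1 (-0.25) and AOAT2 (-0.033). Of genes without a call, log2 fold changes without 1 library ran from -0.34 (without agc1-4 replicate 3) to 0.69 for PGLP1, from -0.028 (without WT replicate 2) to 0.11 for TIM, from -0.078 to 0.000399 (without WT replicate 1) for RPE and from -0.058 to 0.0101 (without WT replicate 2) for CAT2, which was 0.0122 with GC and length trends removed. The 22 lower genes became 21 with RLE size factors, 23 without the filter, 18 with DESeq2, 15 and 14 with limma on log2(FPKM + 1) and log2(FPKM + 0.1), 21 with GC and length trends removed and 26 with paralogs summed, where 0 were higher. In that last fit each gene took the single result of its family, so the small subunit sum counted 4 times. The 26 are therefore not separate results, and the sum of PGLP1 includes PGLP1B, which is not among the 43 genes. Without 1 library the count was 15 to 29 and the median log2 fold change -0.19 to -0.13. For the other genes of the pathways, the count lower was 2 with DESeq2, 1 and 1 with limma and 2 to 7 without 1 library, and the count higher was 1 to 2. For cytosolic isoforms, 0 and 0 were lower with limma, 2 with trends removed and 0 to 2 without 1 library, and 0 to 3 were higher without 1 library. For photosystem genes, 11 to 34 were lower without 1 library, and the median was -0.25 with trends removed. The cause was not tested in any of these.

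No pairing of the libraries by replicate number was stated. Deviations of same-numbered libraries correlated at -0.0304, 0.00502 and 0.0338, and those of differently numbered libraries at -0.03504 to 0.03335. Such values cannot show whether libraries were handled in pairs. With the replicate block 20 of the 43 genes were lower and 1 higher. Level ratios computed from TPM changed sign in 1 gene, FBA3 (-0.011), and 4 others moved by more than the spread between replicates. With 3 libraries a group, calls near the threshold depended on single libraries, and AGC1-4 was removed by the filter in 1 of the fits without 1 library.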

Other observations

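Shares of single genes within families were also computed for families chosen after their values were seen. TKL2 made up 21.0% ± 0.817 of transketolase FPKM in agc1-4 and 16.7% ± 0.708 in WT (SD, n = 3 each), and the libraries of the genotypes did not overlap. AOAT2 made up 16.3% ± 0.194 of its pair in agc1-4 and 15.1% ± 0.448 in WT. GLDH3 made up 41.6% ± 1.103 of its pair with GDCH in agc1-4 and 44.4% ± 1.41 in WT. That pair leaves out GLDH2, an H protein gene outside the 43, which was higher in agc1-4 (0.31 ± 0.08, adjusted p = 0.00651 by edgeR). RBCS2B made up 18.5% ± 0.0822 of the small subunit sum in agc1-4 and 19.1% ± 0.369 in WT. Each of these 4 shares gave an exact two-sided permutation p of 0.1, the smallest that 3 against 3 libraries allow. The shares of RBCS1B (p = 0.3) and RBCS3B (p = 0.7) in the small subunit sum and of PGLP1 in its pair (p = 0.6), computed in the same way, did not reach it (exact permutation tests). For PGLP1 the share was 8.29%, 11.7% and 28.2% in agc1-4 replicates 1, 2 and 3, against 14.2%, 7.46% and 11.5% in WT replicates 1, 2 and 3. The range within agc1-4 was wider than the difference between genotypes.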
